A study of Mus musculus with 192 samples.

Results

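The PAM+Zymosan+CpGB triplet was compared with the 3 pairs it contains, PAM+Zymosan, PAM+CpGB and Zymosan+CpGB, so that each comparison shows what the third ligand added. These 4 groups were taken by name from the labels and hold 12 libraries, 3 per group. They are 4 of the 64 groups in the series, each of 3 libraries. The cells were mouse bone marrow-derived dendritic cells, grown with 15 ng/mL GM-CSF from marrow of female C57BL/6J mice aged 6 to 8 weeks and plated at 100000 cells per well. All groups were harvested after 6 h with ligand. The series combines 7 ligands of pattern recognition receptors and has a control group, Ctrl. Ctrl and the single ligands PAM, Zymosan and CpGB, another 12 libraries, were used where the effect of a ligand alone was needed. The labels call the yeast preparation zymosan depleted and state no doses. They do not say whether replicates came from separate mice or cultures. The p-values thus measure the spread between libraries of a group, estimated over all 64 groups, and this spread may be technical.

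Dendritic cells sense microbes through receptors that differ in their signalling. Lipopeptides are sensed by Tlr2 with Tlr1 or Tlr6, and unmethylated CpG DNA is sensed in endosomes by Tlr9. Both receptors signal through the adaptor MyD88 to NF-kB, the factor behind many cytokine genes. Beta-glucan of yeast cell walls binds Clec7a (Dectin-1), which signals through the kinase Syk. Type I interferon made by stimulated cells acts back through its receptor and a complex of transcription factors that binds a DNA element called ISRE in the promoters of antiviral genes.

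The 12 libraries held between 92149 and 218755 unique molecular identifier (UMI) counts, with a median of 136987, so precision was limited for weakly expressed genes. Mean totals were 168974 for the triplet, 140356 for PAM+Zymosan, 119841 for PAM+CpGB and 185745 for Zymosan+CpGB. Pearson's r between libraries of a group, across genes of at least 50 CPM (counts scaled to equal library size), was 0.89 to 0.94 over the 12 pairs of libraries. Dendritic cell markers were high: the 10 listed genes summed to between 7874 and 9816 CPM, with the class II gene H2-Aa the highest in each group. Flt3, Zbtb46 and Dpp4, genes of conventional dendritic cells, were at or near 0, with a mean of 7.39 CPM or less in each of the 4 groups. The 9 macrophage markers in the table summed to between 2063 and 2743 CPM, and the 11 neutrophil markers to between 1173 and 2344 CPM. Markers of T and NK, B, mast and erythroid cells and of granulocyte precursors summed to at most 19.1 CPM in a library. In bulk samples, fewer cells of a type and less RNA per cell cannot be told apart.

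A gene was called when edgeR's quasi-likelihood test gave a Benjamini-Hochberg adjusted p under 0.05 over the 4720 genes tested and the log2 difference, triplet minus pair, was at least 1 in size. CpGB added to PAM+Zymosan gave 104 higher genes (2.20% of those tested) and 6 lower (0.127%). Zymosan added to PAM+CpGB gave 127 higher (2.69%) and 53 lower (1.12%). PAM added to Zymosan+CpGB gave 15 higher (0.318%) and 41 lower (0.869%). The 3 comparisons share the triplet libraries, so their values are set side by side and are not independent of each other.

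**Figure D1:**
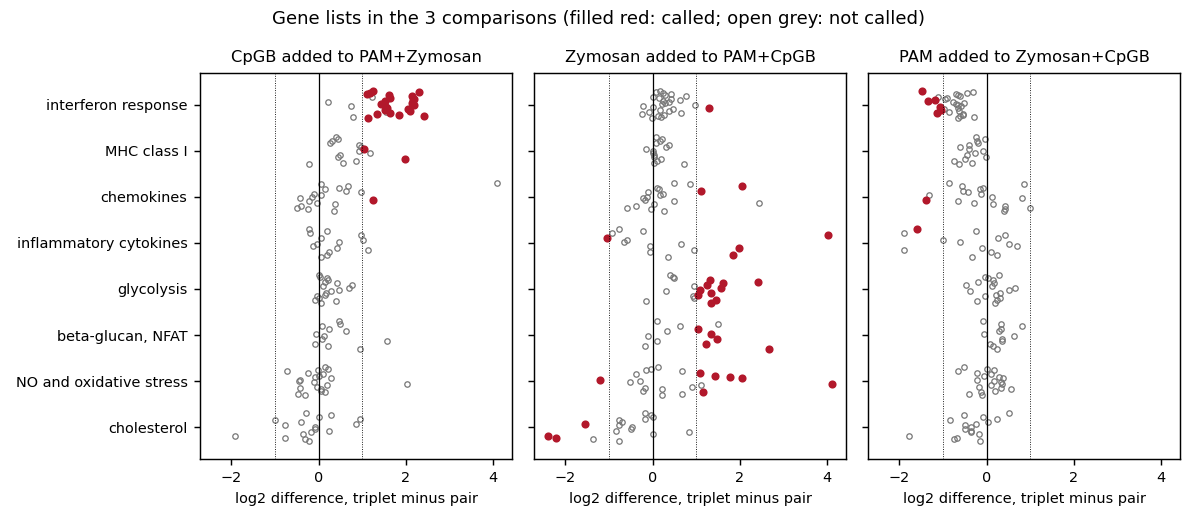
Log2 difference of the triplet from each pair (x axis) for the tested members of 8 gene lists (y axis), 1 point per gene, with dotted lines at -1 and 1. Called genes are filled: interferon genes lie on the right when CpGB was added and on the left when PAM was added, and 10 of 18 glycolysis genes are called higher when Zymosan was added.

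CpGB added to PAM+Zymosan raised genes of the interferon response. Of the 28 interferon response genes listed, 23 were called higher and none lower, with a median log2 difference of 1.56, against a median of 0.00 and 2.20% called higher over all genes tested. The 5 members not called were Ifi44, Irf1, Xaf1, Phf11d and Ly6e, with log2 differences between 0.22 and 1.54. Many of these genes belong to families of close relatives (Ifit, Oas, Mx, Gbp and Ifi200), and how multi-mapping reads were counted is not given in the sources used here, so the values of single members are uncertain.

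Ifit1, an RNA-binding antiviral protein, stood at 358, 302 and 290 CPM in the PAM+Zymosan libraries and at 1474, 1317 and 1487 CPM in the triplet libraries. The groups were far apart, and the log2 difference was 2.20 (SE 0.19, adjusted p 2.13e-21). Usp18, the protease that removes Isg15 from proteins and dampens interferon signalling, stood at 73.7, 81.0 and 59.9 CPM in the pair and at 507, 285 and 364 CPM in the triplet. Its log2 difference was 2.42 (SE 0.27, adjusted p 7.05e-14). Ddx58, the cytosolic RNA sensor RIG-I, averaged 391 ± 22.6 CPM in the triplet against 77.2 ± 12.8 in the pair (SD, n = 3 each), a log2 difference of 2.31. The highest difference by the naming rule was that of Herc6, an Isg15 ligase, at 2.49 (231 against 41.7 CPM). Oas2, which makes the 2'-5' oligoadenylates that activate RNase L, differed by 2.29 and Pyhin1, an Ifi200-family protein, by 2.22. Irf7, the factor that amplifies interferon production, stood at 612 ± 21.5 CPM in the triplet and 137 ± 15.5 in PAM+Zymosan (SD, n = 3 each).

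The promoters of 4 of these genes are shown because they carry the element that interferon-activated factors bind. They were chosen after their values were seen, as list members with a match. Each is the 200 bases before the start site in RefSeq's GRCm38.p6 table, 5' to 3' on the gene's strand, with capitals marking matches to GAAA, any 2 bases, GAAA on either strand, and overlapping matches run together.
Ifit1, chr19:34640689-34640888, plus strand: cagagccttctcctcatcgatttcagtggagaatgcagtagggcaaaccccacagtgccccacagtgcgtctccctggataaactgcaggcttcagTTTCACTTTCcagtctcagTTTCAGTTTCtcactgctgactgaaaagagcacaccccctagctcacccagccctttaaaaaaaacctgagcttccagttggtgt
Ifit3, chr19:34583329-34583528, plus strand: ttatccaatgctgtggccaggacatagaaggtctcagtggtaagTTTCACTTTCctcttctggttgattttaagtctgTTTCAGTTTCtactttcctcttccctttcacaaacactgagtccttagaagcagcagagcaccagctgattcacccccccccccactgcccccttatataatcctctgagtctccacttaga
Isg15, chr4:156200819-156201018, minus strand: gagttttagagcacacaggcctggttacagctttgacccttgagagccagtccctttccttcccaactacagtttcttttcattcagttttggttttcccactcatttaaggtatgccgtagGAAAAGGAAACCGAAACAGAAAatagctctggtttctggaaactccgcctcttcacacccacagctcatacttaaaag
Rsad2, chr12:26456453-26456652, minus strand: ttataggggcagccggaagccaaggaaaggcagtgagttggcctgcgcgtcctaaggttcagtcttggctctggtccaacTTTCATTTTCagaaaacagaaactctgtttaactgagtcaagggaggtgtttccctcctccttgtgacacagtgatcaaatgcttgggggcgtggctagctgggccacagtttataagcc

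Ifit1 and Ifit3 hold 2 matches each, Isg15 holds 3 that overlap and Rsad2 holds 1, starting 120 bases before the start site. RefSeq promoters of 300 bases were at hand for 78 of the 104 genes that CpGB raised, and 33 of them (42.3%) held a match. The share was 5.09% of the 3614 tested genes with a promoter and 3.99% of the 27025 genes in the table. Of the genes that Zymosan raised, 6 of 97 (6.19%) held one, and of those that PAM lowered, 6 of 29 (20.7%). A match describes the sequence and does not show binding.

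**Figure D2:**
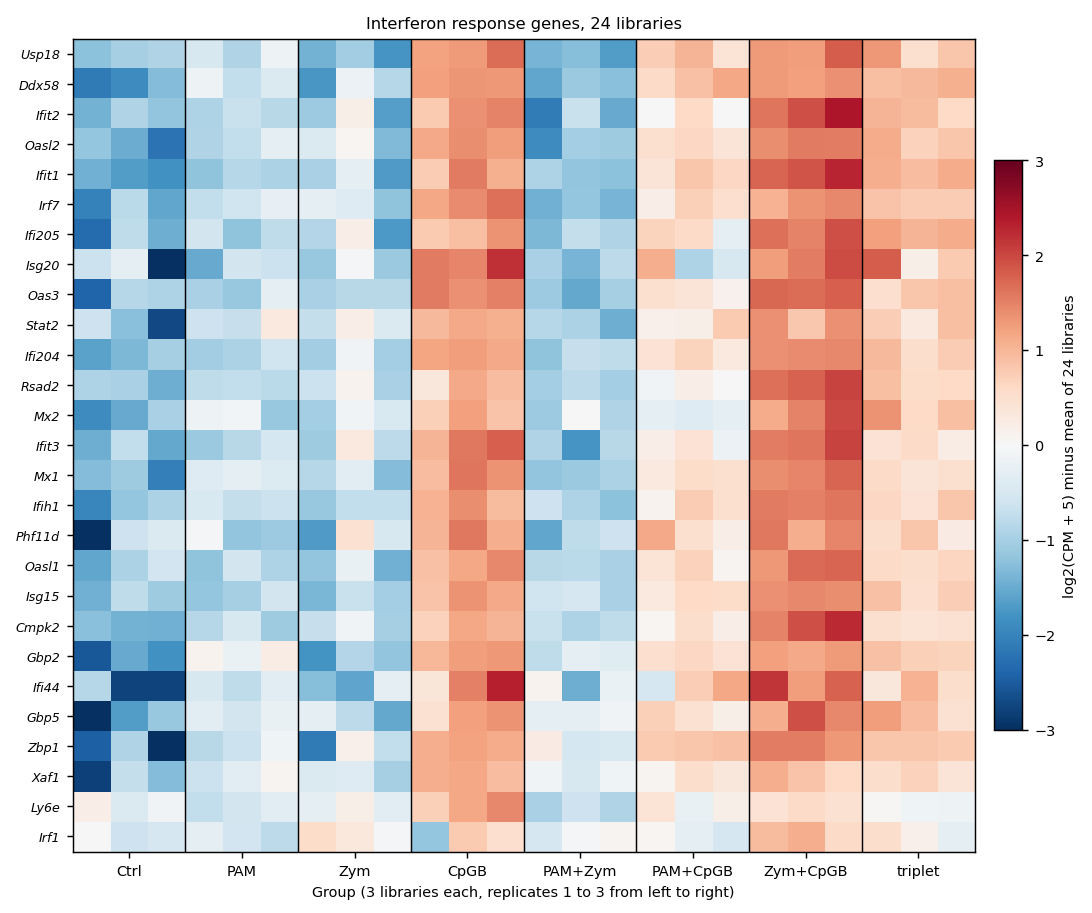
Of the 28 interferon response genes, 27 (rows, ordered by the difference between the triplet and PAM+Zymosan) in 24 libraries (columns, 3 per group). Colour is log2(CPM + 5) minus the gene's mean over the 24 libraries, and the triplet columns lie above PAM+Zymosan and mostly below Zymosan+CpGB.

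Beyond the antiviral genes, few members of the other lists were called when CpGB was added. Cxcl10, the interferon-inducible chemokine for T cells, stood at 877 ± 158 CPM against 370 ± 36.4 (SD, n = 3 each), a log2 difference of 1.25 (SE 0.24, adjusted p 4.10e-05). It was the 1 called gene of 19 tested chemokines, beside 2.20% higher over all genes. Ccl5, another T cell chemokine, differed by 0.98 (adjusted p 3.23e-08), just short of the fold threshold, and was not called. Class I presentation had 2 of 15 members called, beside the same share: Tap1, a subunit of the peptide transporter, with a log2 difference of 1.99, and Psmb10, an immunoproteasome subunit, with 1.05. Of the 15 members, 14 had a positive difference, with a median of 0.57 against 0.00 over all genes. Il15, a cytokine for NK and memory T cells, differed by 1.59 (adjusted p 0.0461) and Batf2 by 1.67. Some of these calls did not hold under every setting. Il15 was not called by DESeq2 (adjusted p 0.0761), with library size alone (0.0546) or with no count filter (0.0674). Thinning to equal totals cut each of the 24 libraries to 61823 UMIs, the total of the smallest Ctrl library. It thus discarded counts from all 12 compared libraries, and a call lost there may reflect lower depth alone. With libraries thinned to equal totals, edgeR called none of Il15 (adjusted p 0.438), Batf2 (0.65, log2 difference 1.18) and Psmb10 (0.0503). Il15 (adjusted p 0.307) and Batf2 (0.169) lost theirs in edgeR without triplet replicate 3, Il15 (0.387) and Batf2 (0.148) without PAM+Zymosan replicate 2, and Il15 (0.173) without PAM+Zymosan replicate 3. Psmb10 fell short of the fold threshold, at 0.93, without PAM+Zymosan replicate 1. No member of the 14 tested inflammatory cytokines was called, with a median of 0.19: Tnf stood at 10599 against 10217 CPM, Il6 at 1354 against 1146 and Il1b at 7823 against 8544.

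The plasmacytoid dendritic cell list moved with this comparison, from 179 to 285 CPM summed in the PAM+Zymosan libraries to between 427 and 691 CPM in the triplet. Both of its tested members were higher in the triplet: Bst2 (tetherin, itself an interferon-inducible gene) was called with a log2 difference of 1.08, and Tcf4 differed by 1.14 and was not called. Siglech, which defines those cells, stood at 1.66 and 1.64 CPM, near 0 in both groups. Fcgr1, the high-affinity IgG receptor on the macrophage list, differed by 2.41 (144 against 25.4 CPM; adjusted p 0.0516 in edgeR with thinned libraries), while the other 7 of 8 tested macrophage markers were not called, beside 2.20% called higher over all genes. The dendritic cell markers summed to between 7874 and 8615 CPM in PAM+Zymosan and between 8813 and 9816 in the triplet, without overlap, with none of 7 tested members called. The part of other cell types in the result was not tested.

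CpGB lowered 6 genes, each of which lost its call without at least 1 library. Mrpl51, a mitochondrial ribosomal protein, stood at 4 UMIs in the triplet and 25 in PAM+Zymosan, and the others were Coro1c, Tfec, Metrnl, Zfp131 and Mkl2, with log2 differences between -1.54 and -1.05. The count of 6 was 3 without PAM+Zymosan replicate 1 or triplet replicate 3, and 1 without PAM+Zymosan replicate 3 or triplet replicate 2. Each fit without a library ran the count filter again, and with no filter the count was 3. With all libraries thinned to equal totals, 62 genes were higher and 0 lower, and 17 of the 28 interferon genes were still called.

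Zymosan added to PAM+CpGB raised genes of glycolysis, the breakdown of glucose. Of 18 glycolysis genes, 10 were called higher and none lower, with a median log2 difference of 1.06 against 0.01 over all genes, of which 2.69% were called higher. The 10 run from uptake to the lower pathway: the glucose transporter Slc2a1, the hexokinases Hk1, Hk2 and Hk3, Gpi1, Pfkl, the regulator Pfkfb3, Tpi1, Pgk1 and Pgam1. Hk2 stood at 115, 133 and 168 CPM in the PAM+CpGB libraries and at 384, 433 and 463 in the triplet. The groups did not overlap, and the log2 difference was 1.62 (SE 0.22, adjusted p 2.97e-09). Slc2a1 stood at 480 ± 74.8 CPM against 172 ± 11.9 and Pfkfb3 at 365 ± 59.2 against 120 ± 30.2 (SD, n = 3 each). Ldha, which makes lactate, differed by 0.95 (adjusted p 1.13e-06) and missed the fold threshold. The call of Hk1 was lost without triplet replicate 3, with an edgeR adjusted p of 0.0781.

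**Figure D3:**
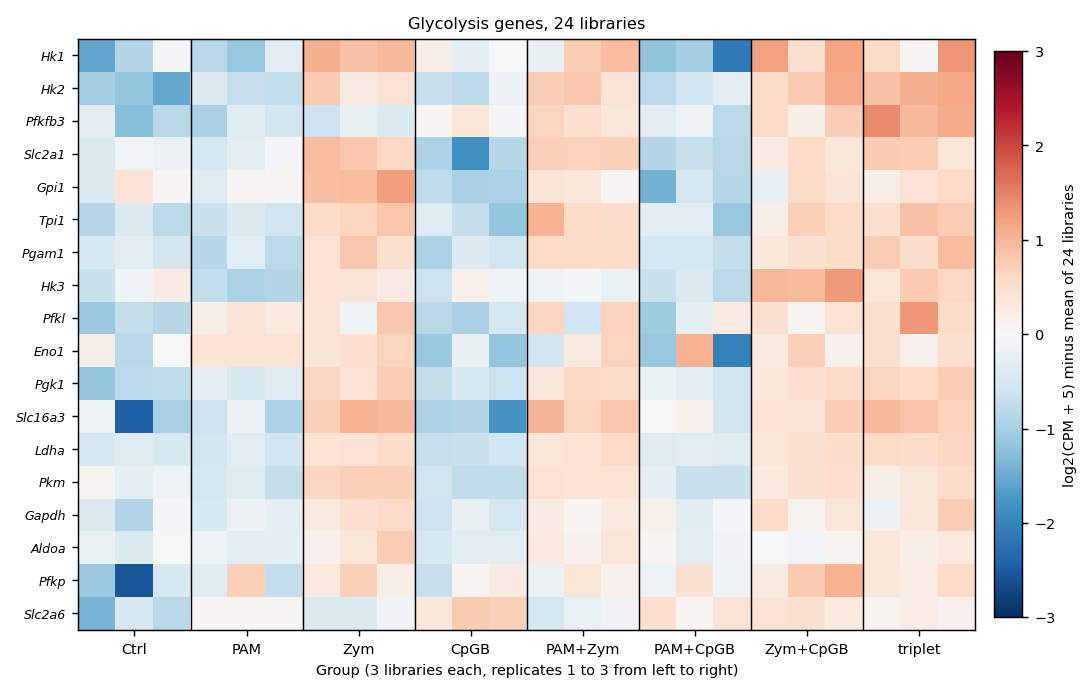
Glycolysis genes (rows, ordered by the difference between the triplet and PAM+CpGB) in 24 libraries (columns, 3 per group), as log2(CPM + 5) minus the gene's mean. The 4 groups with Zymosan are mostly above the gene's mean and the 4 groups without it mostly below.

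The list of genes linked to beta-glucan and calcium-NFAT signalling had 5 of 12 tested members higher and none lower, beside 2.69% higher over all genes. Vegfa, the vascular growth factor, differed by 2.66 (110 against 15.9 CPM), but by 1.79 with thinned libraries, where edgeR did not call it (adjusted p 0.257). Ptgs2, the inducible cyclooxygenase of prostaglandin synthesis, stood at 643 ± 106 CPM against 230 ± 33.7 (SD, n = 3 each; log2 difference 1.48, adjusted p 4.66e-07). Plaur differed by 1.33, Spp1 (osteopontin) by 1.23 and Hif1a, the hypoxia-inducible factor, by 1.04. Clec7a itself stood at 442 against 217 CPM, a log2 difference of 0.99 (adjusted p 2.04e-04) that missed the fold threshold.

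Among the 14 tested cytokines, 3 were higher and 1 lower, beside 2.69% higher and 1.12% lower over all genes. Il1rn, the natural antagonist of the interleukin-1 receptor, stood at 1336, 1636 and 1464 CPM in PAM+CpGB and at 5934, 5626 and 6042 in the triplet, a log2 difference of 1.98 (SE 0.17, adjusted p 1.13e-21). Inhba, an activin subunit, differed by 1.85. Il10, the regulatory cytokine, had 28 UMIs in the triplet and 1 in the pair, a ratio per total of 20.4 (95% exact counting interval 3.37 to 832). Il12a, a subunit of interleukin-12, fell from 190 to 90.6 CPM (log2 difference -1.04, adjusted p 0.0132), a call lost in edgeR without PAM+CpGB replicate 1 (adjusted p 0.0867) or 2 (0.153). Tnf, Il6, Il1b and Il12b were not called, with log2 differences between -0.58 and 0.36. Of 19 chemokines, Ccl2 (log2 difference 2.05) and Ccl4 (1.11) were higher, beside 2.69% of all genes. With libraries thinned to equal totals, edgeR did not call Ccl2 (1.10, adjusted p 0.512), Il10 (0.148) or Il12a (0.522).

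Other genes with little or no signal in PAM+CpGB appeared in the triplet. Hbegf, a ligand of the EGF receptor, had 46 UMIs against 1, a ratio of 33.4 (95% exact counting interval 5.71 to 1350). Nos2, the inducible nitric oxide synthase, had 30 UMIs against 1 (ratio 21.8, interval 3.63 to 890). Egln3, an oxygen-sensing prolyl hydroxylase, had 27 against 2 (ratio 9.81, interval 2.47 to 85.2), and lost its edgeR call without PAM+CpGB replicate 2 (adjusted p 0.111) and with thinned libraries (0.337). DESeq2 did not call Egln3 either (adjusted p 0.0951). Such intervals cover counting error only. Of the 180 genes called in this comparison, 18 had 3 or fewer UMIs in one of both groups.

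G530011O06Rik, a processed transcript at chrX:169975043-169978917 on the minus strand (GENCODE annotation of GRCm38), stood at 28.6, 59.2 and 24 CPM in PAM+CpGB and at 430, 332 and 419 in the triplet. Its log2 difference was 3.33 (SE 0.36, adjusted p 7.30e-14). It lies within Mid1, chrX:169685199-170005736 on the plus strand, which had 29 UMIs against 2 (ratio 10.5, interval 2.67 to 91.2) and was not called by edgeR with thinned libraries (adjusted p 0.221). The sources used here do not say whether counting used strand, and without it reads of both genes cannot be told apart. G530011O06Rik stood between 323 and 394 CPM on average in every group with Zymosan among the 8 shown, and at 37.3 CPM or less in those without it.

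Of 21 tested enzymes of arginine, nitric oxide and oxidative stress, 6 were higher and 1 lower, beside 2.69% higher and 1.12% lower over all genes. The metal-binding Mt2 (log2 difference 2.05) and Mt1 (1.77), the heme-degrading Hmox1 (1.44), Sqstm1 (1.15) and Gclm (1.09) were higher beside Nos2, and Ncf1, a subunit of the phagocyte oxidase, was lower (-1.20). Of 17 genes of cholesterol synthesis and efflux, none was higher and 3 were lower, beside the same shares. They were Nr1h3, the oxysterol receptor LXR alpha (35 ± 23 against 155 ± 55.8 CPM, SD, n = 3 each; log2 difference -2.21), Mvd (-2.39) and Fdft1 (-1.55). Mvd and Fdft1 averaged at most 101 CPM in these groups, were not called by DESeq2 and lost their edgeR calls without PAM+CpGB replicate 3 (adjusted p 0.297 and 0.135), among others. Thinning the libraries to equal totals left none of Nr1h3 (-1.57, edgeR adjusted p 0.158), Mvd (0.699) and Fdft1 (0.0553) called. Tlr1, the Tlr2 partner, was lower with a log2 difference of -1.40 and Cebpd with -1.22, a call lost in edgeR without PAM+CpGB replicate 2 (adjusted p 0.0854) or 3 (0.0711) and with thinned libraries (0.0694). Of the interferon list, 1 member, Mx2 (1.30), was called higher among 28, and not with thinned libraries (edgeR adjusted p 0.0768).

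The count of 53 lower genes was 30 without PAM+CpGB replicate 3, 25 without triplet replicate 3 and 35 by DESeq2. With libraries thinned to equal totals it was 20, beside 72 higher genes, and 10 of 18 glycolysis genes were again called.

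**Figure D4:**
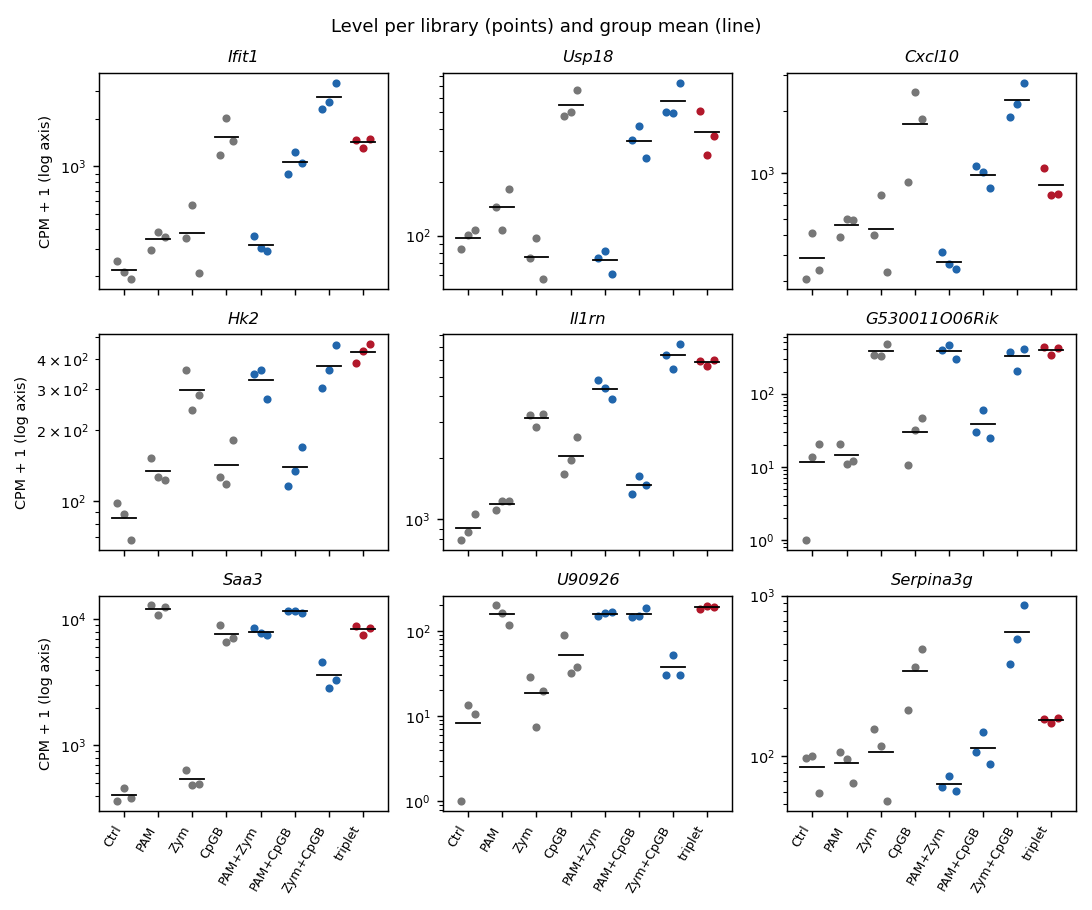
CPM + 1 on a log axis in each library (points) and the group mean (line) for 9 genes across Ctrl, 3 single ligands (grey), 3 pairs (blue) and the triplet (red). The top row was raised by CpGB, the middle row by Zymosan, and in the bottom row PAM raised Saa3 and U90926 and lowered Serpina3g.

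PAM added to Zymosan+CpGB had the fewest calls, and most were falls. Of the 28 interferon genes, 6 were called lower and none higher, with a median log2 difference of -0.68 against 0.01 and 0.869% called lower over all genes; all 28 differences were negative, between -1.48 and -0.30. Those called were Cmpk2, Ifit3, Ifit2, Rsad2, Mx1 and Oasl1. Without Zymosan+CpGB replicate 3 the number called lower was 4, and Ifit2 was among those that missed the fold threshold (-0.97). Cmpk2, a mitochondrial nucleotide kinase, stood at 1413, 1926 and 2390 CPM in Zymosan+CpGB and at 706, 677 and 689 in the triplet. The groups did not overlap (log2 difference -1.48, SE 0.17, adjusted p 7.15e-12). Rsad2, the antiviral enzyme viperin, fell from 4883 ± 671 to 2222 ± 318 CPM (SD, n = 3 each; log2 difference -1.14, adjusted p 3.87e-09). Ifit1 stood at 2757 ± 559 CPM in Zymosan+CpGB and 1426 ± 94.4 in the triplet (SD, n = 3 each), a log2 difference of -0.96 (adjusted p 1.23e-07), just short of the fold threshold. Usp18 differed by -0.61 and Ddx58 by -0.31. The 15 tested genes of class I presentation all had negative differences, between -0.76 and -0.02, with a median of -0.34 and no call. The macrophage markers summed to between 2509 and 2743 CPM in Zymosan+CpGB and between 2249 and 2303 in the triplet, without overlap, with a median log2 difference of -0.45 over 8 tested members and no call. The plasmacytoid markers Tcf4 (-0.64) and Bst2 (-0.33) were not called, and their list summed to between 615 and 743 CPM against 427 to 691. The part of other cell types in this result was not tested.

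Cxcl10 was lower too, at 1862, 2157 and 2734 CPM in Zymosan+CpGB and 1059, 783 and 788 in the triplet (log2 difference -1.38, SE 0.19, adjusted p 8.80e-09). Serpina3g, a protease inhibitor at chr12:104236245-104241939 on the plus strand, fell from 594 to 167 CPM (-1.86, adjusted p 2.30e-08). I830012O16Rik and Gm14446, both with a difference of -1.97, Ddx60 (-1.83), Ms4a4c (-1.73) and Cd200r1 (-1.67) complete the 6 largest falls among genes of at least 50 CPM in a group. With thinned libraries, edgeR called none of I830012O16Rik (adjusted p 0.104), Gm14446 (-1.35, 0.47), Ddx60 (0.484), Ms4a4c (0.608) and Cd200r1 (0.204). Ddx60 and Cd200r1 were not called by DESeq2 (adjusted p 0.0835 and 0.112). The same held in edgeR with library size alone (0.0525 and 0.06) or no count filter (0.0556 and 0.106). Ddx60, Ms4a4c and Cd200r1 each lost their edgeR call without Zymosan+CpGB replicate 1 (adjusted p 0.106, 0.0881 and 0.139) and without 2 or more other libraries. Csf1, the macrophage growth factor, was the 1 called cytokine of 14 (-1.60, adjusted p 0.0385), beside 0.869% lower over all genes. Its libraries overlap between the groups, and its edgeR call was lost without Zymosan+CpGB replicate 2 (adjusted p 0.351) or 3 (0.127) and without triplet replicate 2 (0.306) or 3 (0.178). Csf1 was also not called by DESeq2 (adjusted p 0.108) or with no count filter (0.103), and with thinned libraries its difference was -0.60 (adjusted p 0.95). Tnf (-0.33), Il12b (-0.99) and Ccl5 (-0.43) were not called. For Ifit1, the triplet mean of 1426 CPM thus stood above PAM+Zymosan (317) and PAM+CpGB (1061) and below Zymosan+CpGB (2757).

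The 15 rises with PAM were led by U90926 at chr5:92209893-92215408 on the minus strand, which stood at 29.4, 51.2 and 29.1 CPM in Zymosan+CpGB and at 177, 196 and 187 in the triplet (log2 difference 2.31, SE 0.38, adjusted p 2.71e-06). Its difference was 1.78 with thinned libraries, and edgeR did not call it there (adjusted p 0.169). Adora2b, an adenosine receptor, differed by 1.79, Car4, a carbonic anhydrase, by 1.73, and Csnk1g3 and Sfswap by 1.70 each. These 4 and Map4k4, a kinase, had adjusted p-values from 0.0173 to 0.0453, and none of the 5 was called by DESeq2 or in edgeR without Zymosan+CpGB replicate 3. Named after their values were seen, the acute-phase genes Saa3 (1.22, 8323 against 3589 CPM) and Lcn2 (1.48, 697 against 254 CPM), the siderophore-binding lipocalin, were also higher, with adjusted p-values of 3.87e-09 and 1.63e-10. Il1b differed by 0.69 (adjusted p 2.16e-06) and missed the fold threshold. Lcn2 is on the neutrophil marker list, whose summed level was 1173 to 1289 CPM in Zymosan+CpGB and 1650 to 1896 in the triplet. Lcn2 alone was called among its 11 tested members, beside 0.318% higher over all genes. S100a8 stood at 234 against 221 CPM and Ngp at 114 against 119.

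No glycolysis gene was called when PAM was added (median 0.16 over 18). The 15 rises were 5 to 7 without Zymosan+CpGB replicate 2 or 3 or any 1 triplet library, 6 by DESeq2 and 3 with no count filter. The 41 falls were 19 without Zymosan+CpGB replicate 3, 25 without triplet replicate 3 and 23 by DESeq2. With libraries thinned to equal totals, 5 genes were higher and 14 lower, and 6 interferon genes were called lower.

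No gene was called above all 3 pairs and none below all 3, by edgeR or by DESeq2. At an unadjusted p under 0.05 in edgeR, 4 genes were above each pair by the fold threshold (Csnk1g3, Plrg1, Smim14 and Ugdh) and 4 below (Mrpl51, Mvd, Sec24d and Tsc22d2), all with an adjusted p of 1. These 8 were named after their values were seen. They had 31 to 76 UMIs over the 12 libraries, so no gene with strong signal stood beyond each pair by the fold threshold.

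Tlr2 stood at 402 CPM in the triplet and at 356, 506 and 282 in PAM+Zymosan, PAM+CpGB and Zymosan+CpGB, with no call. Tlr9 had 0 UMIs over the 12 libraries, which allows up to 3, so its level was below what this depth can show.

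The effect of each ligand on its pair was then compared with its effect on unstimulated cells. The test was the triplet minus the pair, less the single ligand minus Ctrl, on the log2 scale. For CpGB, 242 genes (5.13%) had a smaller and 110 (2.33%) a larger log2 difference on the pair than alone. For Zymosan there were 107 (2.27%) and 31 (0.657%), and for PAM 303 (6.42%) and 131 (2.78%). Of the 14 cytokines, 6 were called lower for CpGB, 3 for Zymosan and 7 for PAM, and none higher. Of the 28 interferon genes, 7, 1 and 19 were called lower and none higher. These tests share the Ctrl libraries, whose mean total of 73431 was the lowest of the 8 groups.

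These splits depended on scaling, which moved the median of all genes from 0.00 to 0.17 for CpGB and from -0.01 to 0.22 for PAM when library size alone was used. The share of calls that were higher was 31.2%, 22.5% and 30.2% for CpGB, Zymosan and PAM with edgeR's TMM factors, the scaling used throughout. It was 40.7%, 32.5% and 42.0% with RLE factors, and 46.2%, 30.9% and 48.1% with library size alone. The share moved the other way with no count filter, to 18.4%, 13.2% and 13.9%. With libraries thinned to equal totals it was 18.8%, 16.2% and 19.3%. The 110 higher genes for CpGB were 67 to 87 whichever 1 library was left out, and 58 with no count filter. The 131 for PAM were 82 to 113 whichever 1 library was left out, and 56 with no count filter. The filter was run again in each fit without a library, so these falls cannot be assigned to particular libraries.

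Il1b, the fever cytokine, shows the pattern by its levels. It stood at 313 ± 51.4 CPM in Ctrl, 5542 ± 826 with CpGB, 8130 ± 506 with PAM, 8544 ± 371 with PAM+Zymosan and 7823 ± 360 in the triplet (SD, n = 3 each). The effect of CpGB was smaller on PAM+Zymosan than alone (log2 difference of the effects -4.29, SE 0.20, adjusted p 2.01e-50). Clec4e, the receptor Mincle, stood at 384 CPM in Ctrl, between 2432 and 3891 with each single ligand, between 2667 and 3474 in the pairs and at 3281 in the triplet. Its level in the 7 stimulated groups thus spanned less than its distance from Ctrl. Sod2, the mitochondrial superoxide dismutase, stood at 443 CPM in Ctrl, at 1372, 2458 and 2800 with Zymosan, CpGB and PAM, and at 2631 in the triplet.

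**Figure D5:**
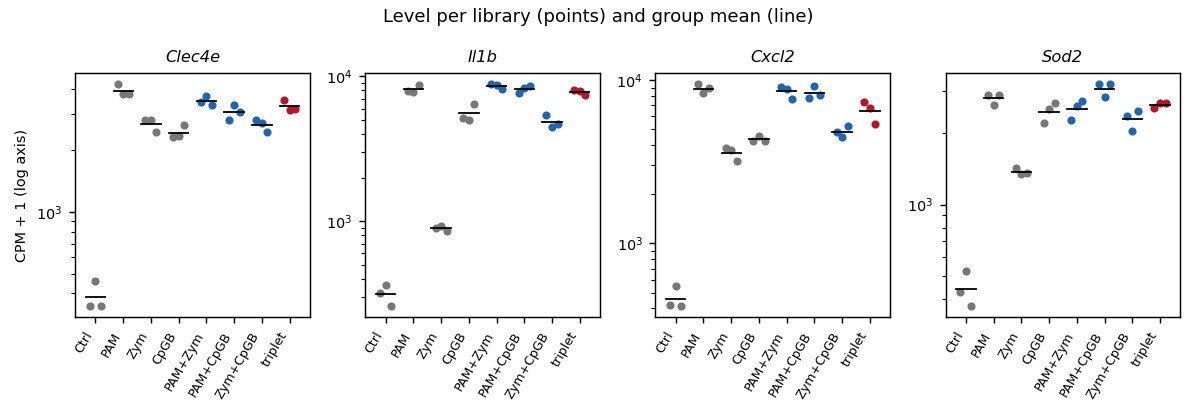
CPM + 1 on a log axis in each library (points) and the group mean (line) for 4 of the genes named by the smallest p in these tests. The triplet mean (red) lies within the range of the means of the single ligands and pairs, all above Ctrl.

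A three-way test, the triplet minus its pairs plus the single ligands minus Ctrl, gave 59 genes above 0 (1.25%) and 9 below (0.191%). A value above 0 means that the triplet exceeded what the singles and pairs give by adding log2 effects. Clec4e had the smallest p, with 2.93 (SE 0.24, adjusted p 1.99e-22), although its triplet level of 3281 ± 204 CPM was below that of PAM+Zymosan, 3474 ± 181 (SD, n = 3 each). Cxcl2, a neutrophil chemokine, gave 2.50 with levels of 459 CPM in Ctrl, 8863 with PAM and 6475 in the triplet. DESeq2 called 37 higher and 8 lower. The 9 lower genes were 3 without Ctrl replicate 2 and 5 without PAM+Zymosan replicate 1 or PAM+CpGB replicate 3.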

How the data were processed

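Total RNA from stimulated dendritic cells was turned into pooled, tagged cDNA and sequenced, and the authors deposited raw UMI counts per gene symbol in 1 table for the whole series. Per the submitters' processing notes the reads were aligned with BWA 0.7.15 to mm10. How UMIs were collapsed, the annotation, the treatment of multi-mapping reads and strand are not given in the sources used here. Columns were matched to samples by title, and the 3 libraries of each group were treated as replicates.

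All libraries of the 64 groups entered 1 edgeR quasi-likelihood fit (edgeR 4.0.16, R 4.3.3, TMM factors, 1 mean per group, 128 residual degrees of freedom), so groups share 1 estimate of the spread. Between libraries of a group, chi-square of the counts per degree of freedom was 1.56 to 1.68 in Zymosan+CpGB and 1.40 to 1.46 in the triplet. It was 1.20 to 1.30 in PAM+Zymosan and PAM+CpGB. Zymosan+CpGB also had the highest mean total of these groups, and the shared estimate may be too small for it. Of 23481 genes, 4720 passed filterByExpr and held 95.7% of UMIs. CPM uses the TMM-scaled library sizes. Log2 differences are fitted values, and p-values were Benjamini-Hochberg adjusted over all genes tested. A gene was called at an adjusted p under 0.05 and an absolute log2 difference of at least 1. A gene counted as above or below all 3 pairs by the largest of its 3 p-values.

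Named genes were, per comparison, the 6 largest called rises and falls among genes of at least 50 CPM in a group whose libraries do not overlap, the 4 smallest p-values per context or three-way test, up to 4 called members of each list, and a fixed set of cytokines and receptors. Others are named as members of a list. The members, gene lists and rules were chosen with earlier results of these data known. Of the genes tested, 4516 matched a gene symbol table, and positions are from a GENCODE annotation of GRCm38 (mm10). Alternatives were RLE factors, library size alone, no count filter, DESeq2 1.42.0, a fit of 24 libraries, libraries thinned to equal totals, no fold threshold, a replicate block and leaving out each library. The count filter was run again in each edgeR fit that used it, so leaving out a library could change the genes tested. The 24 libraries were thinned in 1 random draw to 61823 UMIs, the smallest total among them. In data simulated for CpGB added to PAM+Zymosan over 4720 genes, with 50 genes per fold, 98% of 4-fold rises, 58% of falls to 0.25, 30% of 2-fold rises and 22% of falls to 0.5 were called. The changed genes were drawn only from those above a floor on their PAM+Zymosan level, so these shares do not cover the weakest genes. In the same data, 4 unchanged genes were called.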

Additional observations from a re-analysis of the deposited data

Results flagged for a closer look

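These results differ between contexts by a test of the difference itself: the effect of a ligand on its pair, less its effect on unstimulated cells, in edgeR's quasi-likelihood fit. All of them kept their call under every alternative tried, and all draw on the Ctrl libraries, which were the shallowest of the 8 groups. The cause was not tested.

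For CpGB on PAM+Zymosan the values were -4.29 for Il1b, -4.17 for Saa3, -2.75 for Clec4e and -2.44 for Sod2. Saa3 stood at 402 CPM in Ctrl, 7605 with CpGB, 7971 with PAM+Zymosan and 8323 in the triplet. For Zymosan on PAM+CpGB they were -3.34 for Cxcl2, -2.72 for Clec4e, -1.93 for Irg1 and -1.86 for Sod2. Cxcl2 stood at 459 CPM in Ctrl, 3596 with Zymosan, 8324 with PAM+CpGB and 6475 in the triplet.

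For PAM on Zymosan+CpGB they were -4.02 for Il1b, -3.04 for Clec4e, -2.88 for Irg1 and -2.47 for Sod2. Irg1, the deposited symbol of the itaconate-producing enzyme Acod1, stood at 413 CPM in Ctrl, 2361 with PAM, 2760 with Zymosan+CpGB and 2153 in the triplet. In the three-way test the values were 2.93 for Clec4e, 2.54 for H2-M2, 2.50 for Cxcl2 and 1.67 for Sod2. H2-M2, a non-classical class I gene, stood at 150 CPM in Ctrl, 1222 with PAM, 595 with Zymosan, 1080 with CpGB, between 812 and 1188 in the pairs and at 936 in the triplet.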

How the results depend on the processing

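With libraries thinned to equal totals, CpGB added to PAM+Zymosan gave 62 higher and 0 lower genes, Zymosan added to PAM+CpGB 72 and 20, and PAM added to Zymosan+CpGB 5 and 14. The context tests then gave 38 higher for CpGB, 13 higher and 67 lower for Zymosan and 51 higher for PAM, and the three-way test 38 and 2. With DESeq2, Zymosan gave 35 lower, PAM 6 higher and 23 lower, the context test of Zymosan 63 lower and the three-way test 37 higher. With no count filter, CpGB gave 3 lower, Zymosan 28 lower and PAM 3 higher, the context tests 58, 18 and 56 higher for CpGB, Zymosan and PAM, and the three-way test 3 lower. With library size alone, CpGB gave 10 lower, and the context tests 169 higher for CpGB and 215 for PAM. With the 24-library fit, CpGB gave 13 lower and the three-way test 18 lower. With no fold threshold, Zymosan gave 194 higher and 92 lower, and PAM 36 and 76.

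Leaving out 1 library at a time gave 90 to 112 higher and 1 to 5 lower genes for CpGB, 98 to 114 and 25 to 57 for Zymosan, and 5 to 15 and 19 to 42 for PAM. The context tests gave 67 to 87 and 210 to 282 for CpGB, 21 to 32 and 83 to 118 for Zymosan, and 82 to 113 and 285 to 344 for PAM, and the three-way test 48 to 75 and 3 to 10. The count of genes beyond all 3 pairs was 0 throughout. Over the settings that keep the fold threshold, thinning included, called interferon genes numbered 17 to 24 of 28 for CpGB and 4 to 9 for PAM, and called glycolysis genes 8 to 10 of 18 for Zymosan. Of the named genes called in the 3 comparisons, 8 of 20, 18 of 36 and 5 of 18 kept their call under every alternative, and none reversed. The cause of these shifts was not tested.

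Same-numbered libraries did not deviate together (correlations from -0.02 to 0.03), and 1, 2 and 1 of 3 triplet libraries correlated best with their own number. With a replicate block, the counts were 107 higher and 6 lower for CpGB, 127 and 54 for Zymosan, and 16 and 42 for PAM. The context tests gave 115 and 244, 31 and 110, and 137 and 308, and the three-way test 65 and 10.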
